A study of Drosophila melanogaster with 24 samples.

Results

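The 48 genes described here encode subunits of the mitochondrial respiratory chain and of ATP synthase in Drosophila melanogaster embryos. They were chosen by name: the platform annotation's symbol begins with ND- (complex I), Sdh (complex II), UQCR (complex III), COX (complex IV) or ATPsyn (complex V, ATP synthase), and the probe set reached a log2 value of 5 in at least 3 of 24 arrays, with 1 probe set per gene. Of 67 genes with such a symbol, 48 passed, among 5736 rows tested in all: 25 of complex I, 3 of complex II, 3 of complex III, 6 of complex IV and 11 of complex V. The rule used levels over all arrays and no contrast between groups.

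Complex I takes electrons from NADH and complex II from succinate. Complex III and complex IV pass them through cytochrome c to oxygen, and complexes I, III and IV pump protons out of the mitochondrial matrix. ATP synthase lets protons flow back through a rotating ring of c subunits and makes ATP. A few core subunits are encoded in mitochondrial DNA, but all genes described here are nuclear. The early fly embryo inherits its mitochondria from the egg.

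Whole embryos from 4 crosses were compared on Affymetrix DrosGenome1 arrays, in a study of how Notch and Ras signals are integrated. Every embryo inherited arm-GAL4 from its mother, a GAL4 activator under the armadillo promoter, which is active in most cells. The fathers carried UAS-NotchICD, the ligand-independent intracellular part of Notch (Notch embryos), UAS-Ras85D(V12), a constitutively active Ras (Ras embryos), both transgenes (combined embryos), or were w1118 (control embryos). Each cross was sampled late, from 7 to 8 h after egg lay (mid-stage 11 to stage 12), and early, from 5 h 45 min to 6 h 45 min (stage 10 to mid-stage 11), with n = 3 arrays per cross and window. Per the series' design text the 3 arrays came from independent experiments, each with a large pool of embryos. In RNA from whole embryos, fewer cells of a type and less RNA per cell cannot be told apart.

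Values are GC-RMA log2 expression levels, and a change is a difference of group means on that scale with its standard error from the fit over all 24 arrays. A gene is said to have changed where limma's p, adjusted by Benjamini-Hochberg over the 5736 rows, was under 0.05. Of the 48 genes, 47 reached a log2 value of 5 in all 24 arrays. The exception is ATPsynbetaL, a paralog of the catalytic beta subunit gene, whose mean was 5.13 and which lay just inside the level limit; Sdhaf3, with a highest value of 4.53, lay just outside. The other single-symbol genes left out were 16 paralogs with symbols ending in L or in L and a digit, which reached 4.03 at most (COX4L), and COX7C and ND-B8, whose highest values were 2.90 and 2.25. A further 4 probe sets, with mean levels of 3.26 to 11.10, carry a respiratory symbol beside that of another gene and were not counted.

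Over all 24 arrays the median of the 48 genes lay between 7.95 and 8.71 log2 units, against 6.65 and 6.96 for the median of all rows tested. The median of the 48 genes was 8.14, 8.39 and 8.34 in late Notch arrays, against 7.95, 8.09 and 8.18 in early ones. In Ras embryos it was 8.31, 8.58 and 8.39 late and 8.19, 8.22 and 8.17 early. Late and early arrays overlapped in Notch embryos and were separate in Ras embryos. The late combined arrays stood at 8.22, 8.42 and 8.37 and the early ones at 7.98, 8.11 and 8.18, without overlap. In control embryos the late values were 8.55, 8.31 and 8.71 and the early values 8.30, 8.23 and 8.03, separated by a very small gap. Late control replicate 3 was the highest of all arrays.

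**Figure D1:**
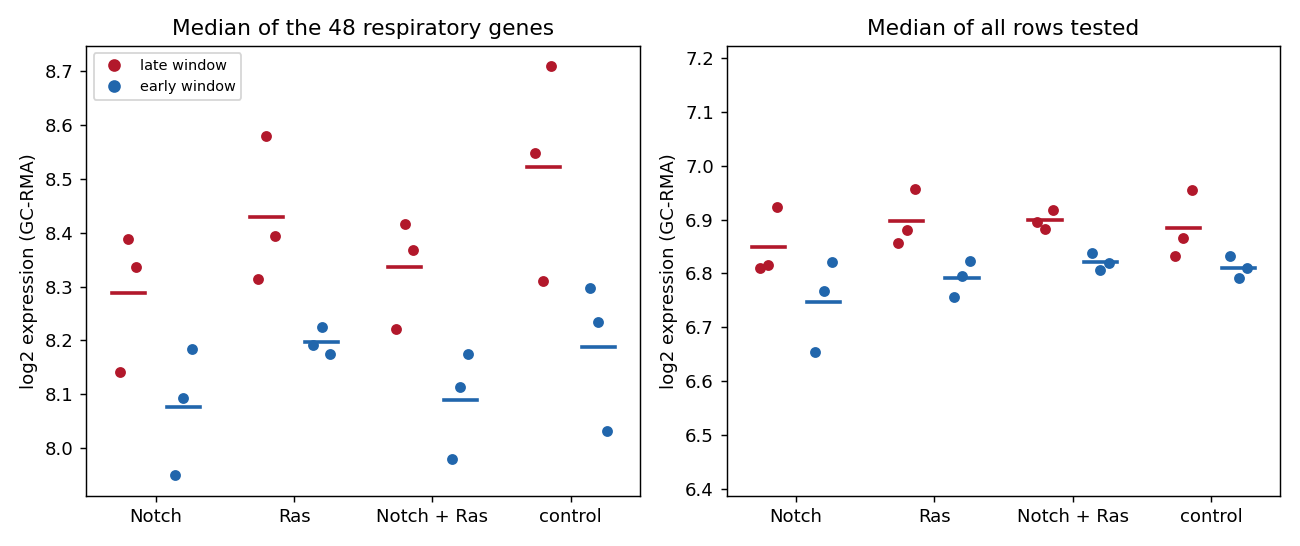
Median log2 level per array of the 48 respiratory genes (left) and of all 5736 rows tested (right) in the Notch, Ras, combined (Notch + Ras) and control crosses; points are arrays, bars are group means, and both panels span the same log2 range. Late arrays lie above early arrays in group mean for each cross on the left, and the highest value, 8.71, belongs to late control replicate 3.

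Between the windows, 16 to 22 of the 48 respiratory genes rose in each cross. In Notch embryos 16 of 48 rose and 1 fell (33.3% rising, against 18.4% of all rows rising and 9.99% falling). In Ras embryos 16 rose and 1 fell (33.3% rising, against 17.8% and 10.7% of all rows). In combined embryos 20 rose and 0 fell (41.7% rising, against 20.3% and 13% of all rows). In control embryos 22 rose and 0 fell (45.8% rising, against 18.3% and 13.1% of all rows). The median change over the 48 genes was 0.22 log2 units in Notch, 0.30 in Ras, 0.32 in combined and 0.34 in control embryos, beside medians over all rows of 0.07, 0.04, 0.03 and 0.00.

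The rises were modest: the largest, that of ND-39 in combined embryos, was 1.83-fold. All 3 late values lay above all 3 early values for 18 genes in Notch embryos (37.5%, against 26.7% of all rows), 23 in Ras embryos (47.9%, against 23.6%), 28 in combined embryos (58.3%, against 29%) and 27 in control embryos (56.2%, against 24.2%). The estimate was positive in all 4 crosses for 39 of 48 genes (81.2%, against 35.4% of all rows). A rise passed the test in all 4 crosses for 11 genes (22.9%, against 8.89% of all rows), in 3 crosses for 3, in 2 for 6, in 1 for 9 and in none for 19 (39.6%, against 69.2%).

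Scaling moved the balance of directions over all rows. After median centring of the arrays, rises as a share of all called rows were 47.4% in Notch, 42.6% in Ras, 47.2% in combined and 44.3% in control embryos, against 64.9%, 62.5%, 61.1% and 58.3% as deposited. The respiratory genes then had 9 rises and 1 fall in Notch embryos (18.8% rising, against 14.1% of all rows), so that the count lay near the background in that cross. They had 12 rises and 2 falls in Ras (25%, against 13.9%), 15 rises and 1 fall in combined (31.2%, against 16.5%), and 16 rises and 0 falls in control embryos (33.3%, against 15.5%), with medians of 0.12, 0.19, 0.24 and 0.26 log2 units beside all-row medians of -0.03, -0.07, -0.05 and -0.08. No called change of a respiratory gene turned its direction under either scaling.

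Complex I, with 25 of the 48 genes, held 7 of the 11 that rose in all 4 crosses: ND-18, ND-39, ND-51, ND-75, ND-B14, ND-B14.5A and ND-B22. Some of these calls depended on scaling. Under median centring and under quantile normalisation, ND-51 and ND-75 were not called in Notch embryos, nor ND-51 and ND-B22 in Ras embryos. ND-18, ND-39, ND-B14 and ND-B14.5A kept their calls in all crosses under both scalings. Of its 25 genes, 9 rose in Notch (36%), 11 in Ras (44%), 10 in combined (40%) and 12 in control embryos (48%), with none falling. The shares of all rows rising were 18.4%, 17.8%, 20.3% and 18.3%. Estimates were positive in all crosses for 23 of the 25, against 35.4% of all rows. ND-39, the fly counterpart of human NDUFA9, had the largest SD of group means among the 48. Its level was 6.75, 7.16 and 7.44 in late Notch arrays, against 6.38, 6.54 and 6.72 in early ones. In late Ras arrays it was 7.11, 7.51 and 7.34, against 6.62, 6.80 and 6.39 early. Late levels lay above early levels in both crosses.

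In combined embryos ND-39 stood at 7.13, 7.40 and 7.40 late and 6.49, 6.56 and 6.25 early. Control embryos had 7.22, 7.25 and 7.65 late and 6.79, 6.52 and 6.39 early. The late and early arrays did not overlap in these crosses either. The change in ND-39 was 0.57 ± 0.17 in Notch (adjusted p = 0.0156), 0.72 ± 0.17 in Ras, 0.88 ± 0.17 in combined and 0.81 ± 0.17 in control embryos (adjusted p = 0.00107), a 1.75-fold rise in the last.

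ND-75 and ND-51 encode iron-sulfur and flavin-binding core subunits of the arm where NADH is oxidised. ND-75 rose by 0.37 ± 0.13 in Notch, 0.44 ± 0.13 in Ras, 0.71 ± 0.13 in combined and 0.56 ± 0.13 in control embryos. ND-51 rose by between 0.36 (Ras) and 0.62 (combined). ND-B14 rose by 0.57 to 0.63, the narrowest range of the 11 genes that rose in all crosses, and ND-18, a counterpart of human NDUFS4, by 0.54 to 0.63. The accessory gene ND-MWFE rose by 0.65 ± 0.18 in control embryos and by 0.50 ± 0.18 in Ras embryos. Its changes of 0.43 in Notch and 0.44 in combined embryos did not pass the test. ND-42 rose by 0.58 in Ras embryos, and ND-MNLL by 0.49 in Notch and 0.56 in Ras embryos. The other probe set of ND-MNLL had window changes of 0.12 in Notch and 0.37 in Ras embryos.

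All 3 complex II genes had positive estimates in all crosses. SdhB, which encodes the iron-sulfur subunit, had late levels of 7.87, 8.00 and 8.18 in Notch embryos, against early levels of 7.38, 7.60 and 7.77. In combined embryos it had 8.20, 8.46 and 8.32 late, against 7.68, 7.56 and 7.62 early. Late and early arrays did not overlap in either cross. SdhB rose by 0.43 ± 0.12 in Notch, 0.53 ± 0.12 in Ras, 0.71 ± 0.12 in combined and 0.58 ± 0.12 in control embryos (adjusted p = 0.00876, 0.00217, 0.000132 and 0.000811). Of the membrane anchor genes, SdhD rose in Notch embryos (0.51 ± 0.17, adjusted p = 0.0257), combined embryos and control embryos, and SdhC rose in combined embryos (0.52 ± 0.17, adjusted p = 0.0276).

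In complex III, UQCR-6.4, a small subunit, rose by 0.47 ± 0.16 in Notch, 0.79 ± 0.16 in combined and 0.62 ± 0.16 in control embryos, and its change of 0.42 in Ras embryos had adjusted p = 0.0568. UQCR-Q rose in control embryos by 0.36. No change of UQCR-14 passed the test in any cross. Of the 6 genes of complex IV, 1 rose in Notch (16.7%), 0 in Ras, 2 in combined (33.3%) and 1 in control embryos (16.7%), beside 18.4%, 17.8%, 20.3% and 18.3% of all rows, and the median change over the 6 was 0.02, 0.09, 0.13 and 0.16. COX7A was the gene that rose in 3 crosses (0.42 ± 0.13 in Notch, 0.41 ± 0.13 in combined and 0.63 ± 0.13 in control embryos), and COX5A rose in combined embryos by 0.44. The complexes were not tested against each other.

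COX8, another small subunit gene of cytochrome c oxidase, was the one respiratory gene that fell. In Notch embryos it had 9.97, 9.94 and 9.81 late, against 10.13, 10.41 and 10.32 early. In Ras embryos it had 10.03, 9.62 and 10.10 late, against 10.10, 10.51 and 10.40 early. Late arrays lay below early ones in both crosses, by a very small gap in Ras embryos. The change was -0.38 ± 0.13 in Notch (adjusted p = 0.0350) and -0.42 ± 0.13 in Ras embryos (adjusted p = 0.0211). It was -0.10 ± 0.13 in combined and 0.11 ± 0.13 in control embryos (adjusted p = 0.583 and 0.55). The differences from the control change, -0.49 ± 0.19 for Notch, -0.53 ± 0.19 for Ras and -0.21 ± 0.19 for combined, did not pass (adjusted p = 0.286, 0.823 and 0.708). The Notch fall was no longer called without early replicate 2 or 3 or late replicate 2 or 3, nor with the replicate number as a block. The Ras fall was not called without early replicate 2 or 3 or late replicate 2.

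Of the 11 ATP synthase genes, 3 rose in Notch (27.3%), 4 in Ras (36.4%), 4 in combined (36.4%) and 5 in control embryos (45.5%). Beside these, 18.4%, 17.8%, 20.3% and 18.3% of all rows rose. ATPsynB, ATPsynC and ATPsyngamma rose in all 4 crosses. With median centring the rise of ATPsynC in Notch embryos was no longer called. ATPsyngamma encodes the rotor shaft that turns inside the catalytic head. It had 7.84, 8.04 and 8.05 in late Notch arrays, against 7.48, 7.49 and 7.53 in early ones. In control embryos it had 8.38, 8.34 and 8.53 late, against 7.77, 7.61 and 7.50 early. Each late array lay above each early array. The change was 0.48 ± 0.11 in Notch (adjusted p = 0.00319), 0.66 ± 0.11 in Ras, 0.55 ± 0.11 in combined and 0.79 ± 0.11 in control embryos (adjusted p = 2.27e-05), a 1.72-fold rise in the last.

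ATPsynC, which encodes the proton-carrying ring subunit, had 9.67, 9.91 and 9.95 late in Notch embryos, against 9.30, 9.55 and 9.54 early. Control embryos had 10.19, 10.50 and 10.49 late, against 9.72, 9.80 and 9.52 early. Late arrays were above early arrays in both crosses. The changes were 0.38 ± 0.13 in Notch, 0.50 ± 0.13 in Ras, 0.39 ± 0.13 in combined and 0.71 ± 0.13 in control embryos. The other ATPsynC probe set had a mean of 3.84, near background, and is not used. ATPsynB, a peripheral stalk subunit gene, rose by 0.43 in Notch, 0.51 in Ras, 0.74 in combined and 0.59 in control embryos. ATPsyndelta, of the central stalk, had changes of -0.24 ± 0.16, -0.19 ± 0.16, -0.35 ± 0.16 and 0.13 ± 0.16 in Notch, Ras, combined and control embryos, none of which passed. ATPsynD, of the peripheral stalk, rose in Ras embryos (0.44, adjusted p = 0.0183). ATPsynbetaL had changes between -0.14 and 0.08.

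**Figure D2:**
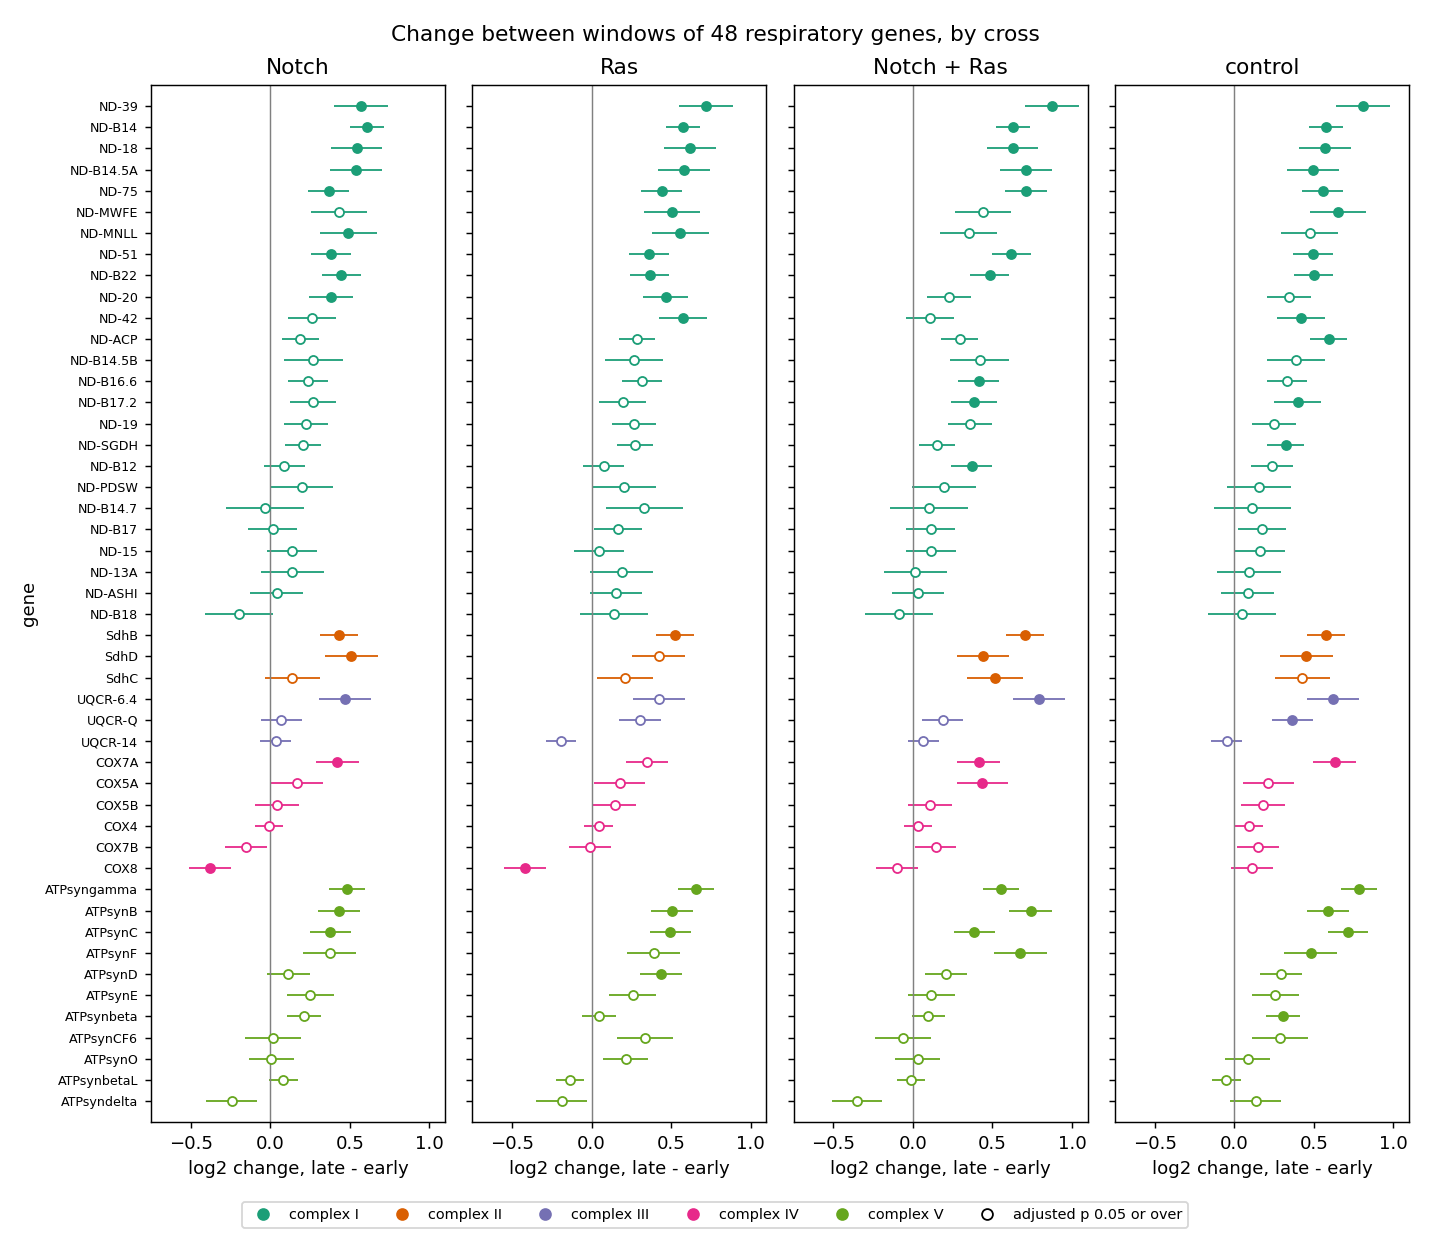
Late minus early log2 change with its standard error for each of the 48 genes (rows, ordered by complex and size) in the Notch, Ras, combined (Notch + Ras) and control crosses; filled points had an adjusted p under 0.05. Filled points lie right of 0 in all crosses except those of COX8 in the Notch and Ras panels, at -0.38 and -0.42.

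The size of these counts depended on single arrays. Control embryos had 12 rises without late control replicate 3, with a median change of 0.25. Notch embryos had 7 called genes without early replicate 1, 8 without early replicate 2, 7 without late replicate 2 and 4 without late replicate 3. Ras embryos had 11 without early replicate 1 or early replicate 3, and 9 without late replicate 2. Combined embryos had 12 without early replicate 1, late replicate 2 or late replicate 3. These refits have fewer arrays and so less precision, and no share over all rows is given beside their counts.

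Muscle marker levels were lowest in replicate 3 among the late arrays of every cross. The 6 muscle markers tested averaged 6.11, 5.99 and 5.62 log2 units in late Notch, 7.60, 8.12 and 6.04 in late Ras, 5.47, 5.84 and 5.32 in late combined and 8.35, 8.27 and 5.53 in late control arrays, against 5.16 to 5.81 in early arrays. All 6 rose between the windows in control embryos, 4 in Ras, and 1 each in Notch and combined embryos. These are 100%, 66.7%, 16.7% and 16.7%, beside 18.3%, 17.8%, 18.4% and 20.3% of all rows rising. Of 6 blood cell (hemocyte) markers 4 rose in control (66.7%), 3 in Ras (50%), 1 in Notch (16.7%) and 0 in combined embryos. Their late averages were 5.42 to 5.55 in Notch, 6.15 to 6.30 in Ras, 5.36 to 5.79 in combined and 5.69 to 6.44 in control arrays. Of the array's control transcripts for RNA quality, actin had a 3' over 5' excess of 0.27 to 0.88 log2 units over all 24 arrays, with no separation of late from early arrays. How far the 3' GAPDH control probe set exceeded the 5' one was 1.77, 1.50 and 1.55 late in Notch embryos, against 0.62 to 0.79 early. It was 2.24, 2.97 and 2.13 late in Ras embryos, against 0.40 to 1.35 early, and 1.43, 1.91 and 2.58 late in combined embryos, against 0.70 to 1.08 early. It was 3.03, 3.91 and 2.57 in late control arrays, against 0.55 to 0.87 in early ones. The glycolytic gene Gapdh1 itself rose between the windows in control (0.92 ± 0.15) and Ras embryos (0.40 ± 0.15). Its change did not pass the test in the other crosses. Whether the level of this gene moved the GAPDH difference was not tested. Late control replicate 3 had the highest median of the respiratory genes and the lowest of these late muscle and GAPDH values in control embryos. The part of muscle content or RNA quality in the rise of the respiratory genes was not tested.

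**Figure D3:**
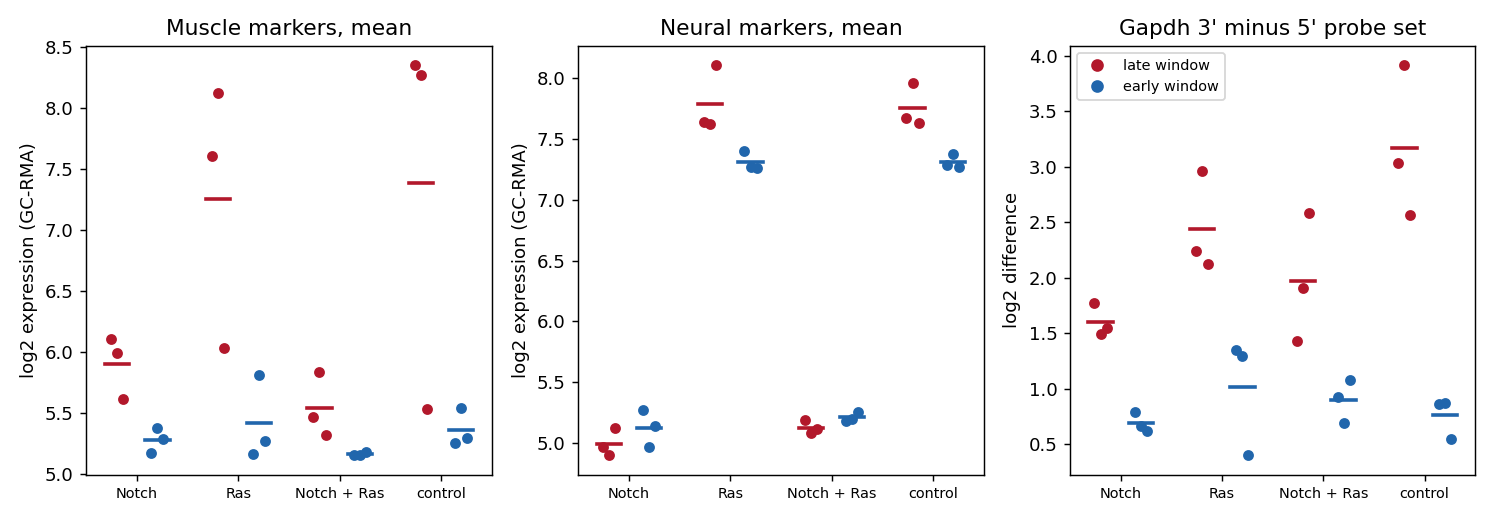
Mean log2 level of 6 muscle markers (left), of 6 neural markers (middle) and the log2 difference between the 3' and 5' GAPDH control probe sets (right) in each array of the Notch, Ras, combined (Notch + Ras) and control crosses; points are arrays and bars group means. Late control replicate 3, the third late control point, has a muscle value of 5.53 beside 8.35 and 8.27.

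In the late window, 8 of the 48 genes were lower in Notch embryos than in control embryos, or 2 of 48 without late control replicate 3. None rose (16.7% falling, against 7.5% of all rows falling and 6.22% rising). The median change was -0.25 log2 units, beside 0.01 over all rows, and 46 estimates were negative. All 3 Notch values lay below all 3 control values for 15 genes (31.2%, against 13.2% of all rows). The genes that fell were ND-75 and ND-ACP of complex I, UQCR-Q of complex III, COX4, COX7B and COX8 of complex IV, and ATPsynC and ATPsyngamma of complex V.

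ATPsynC changed most. Its late levels of 9.67, 9.91 and 9.95 in Notch embryos lay below 10.19, 10.50 and 10.49 in control embryos, without overlap, a change of -0.55 ± 0.13 (adjusted p = 0.00424), or 0.68 of the control level. ND-75 had 6.82, 6.67 and 6.92 in late Notch arrays, against 7.24, 7.21 and 7.53 in late control arrays. The groups did not overlap, and the change was -0.52 ± 0.13 (adjusted p = 0.00805). COX8 had 9.97, 9.94 and 9.81 in late Notch arrays, against 10.46, 10.34 and 10.42 in late control arrays. These were again separate, with a change of -0.50 ± 0.13 (adjusted p = 0.0121).

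ATPsyngamma fell by 0.44 ± 0.11 (adjusted p = 0.0116), COX7B by 0.43 ± 0.13 (adjusted p = 0.0309), UQCR-Q by 0.42 ± 0.13 (adjusted p = 0.0335), ND-ACP by 0.39 ± 0.11 (adjusted p = 0.0255) and COX4 by 0.27 ± 0.09 (adjusted p = 0.0468). ND-ACP encodes the mitochondrial acyl carrier protein, and COX4 a nuclear-encoded subunit of cytochrome c oxidase. The 2 positive estimates were those of SdhD (0.07) and ATPsynbetaL (0.16), neither past the test. ATPsyndelta had -0.47 ± 0.16 at adjusted p = 0.0569, and passed with the replicate number as a block (adjusted p = 0.0221), as did ND-B18 (-0.41, adjusted p = 0.0289).

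This count depended on late control replicate 3. Without it 2 genes fell, ATPsynC (-0.50, adjusted p = 0.0227) and COX8 (-0.49, adjusted p = 0.0342), and the median change was -0.14. Without late Notch replicate 1 the count was 3, without late Notch replicate 3 it was 4, and in a fit on only the arrays compared it was 4. No all-row share is given for these smaller fits, which have less precision. The 6 neural markers averaged 4.90 to 5.12 log2 units in late Notch arrays, against 7.63 to 7.96 in late control arrays, with 5 of 6 lower. Of 6 muscle markers 2 fell, with averages of 5.62 to 6.11 in late Notch arrays, against 5.53 to 8.35 in late control arrays. Of 6 hemocyte markers 4 fell and 1 rose. The neural, muscle and hemocyte shares falling are 83.3%, 33.3% and 66.7%, beside 7.5% of all rows. The hemocyte share rising is 16.7%, beside 6.22% of all rows. The part of these cell types in the lower respiratory genes was not tested.

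In the late window, 3 genes fell in combined embryos against control: ATPsynC (-0.53 ± 0.13, adjusted p = 0.00522), ATPsyndelta (-0.49 ± 0.16, adjusted p = 0.0407) and ND-ACP (-0.42 ± 0.11, adjusted p = 0.0156). That is 6.25% of the 48, close to the 7.51% of all rows that fell (7.64% rose). With median centring 10.4% fell, against 8.02% of all rows, and with quantile normalisation 12.5%, against 8.05%. The median change was -0.15, beside 0.04 over all rows, and 42 estimates were negative. ATPsynC had 9.77, 9.88 and 9.93 in late combined arrays, against 10.19, 10.50 and 10.49 in late control arrays, without overlap. Groups were separate and lower for 10 genes (20.8%, against 12.2% of all rows).

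With the replicate number as a block 6 genes fell in late combined embryos, adding ATPsyngamma (-0.33, adjusted p = 0.0428), UQCR-Q (-0.28, adjusted p = 0.0311) and COX7A (-0.40, adjusted p = 0.0301). Without late control replicate 3 only ATPsynC was called, at -0.49, and the median change was -0.05. In late combined arrays 5 of 6 neural and 4 of 6 muscle markers were lower than in control arrays (83.3% and 66.7%, against 7.51% of all rows). The muscle average was 5.32 to 5.84, against 5.53 to 8.35.

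In Ras embryos 0 of 48 genes changed late (2.16% of all rows did; limma, 3 genes at an unadjusted p under 0.05). COX8 came nearest, at -0.49 ± 0.13 (adjusted p = 0.058). Its values of 10.03, 9.62 and 10.10 in late Ras arrays lay below 10.46, 10.34 and 10.42 in late control arrays. It was called with the replicate number as a block (adjusted p = 0.0345). The median over the 48 was -0.05, beside 0.02 over all rows, and was 0.05 without late control replicate 3. Without late Ras replicate 3 the count was 1.

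**Figure D4:**
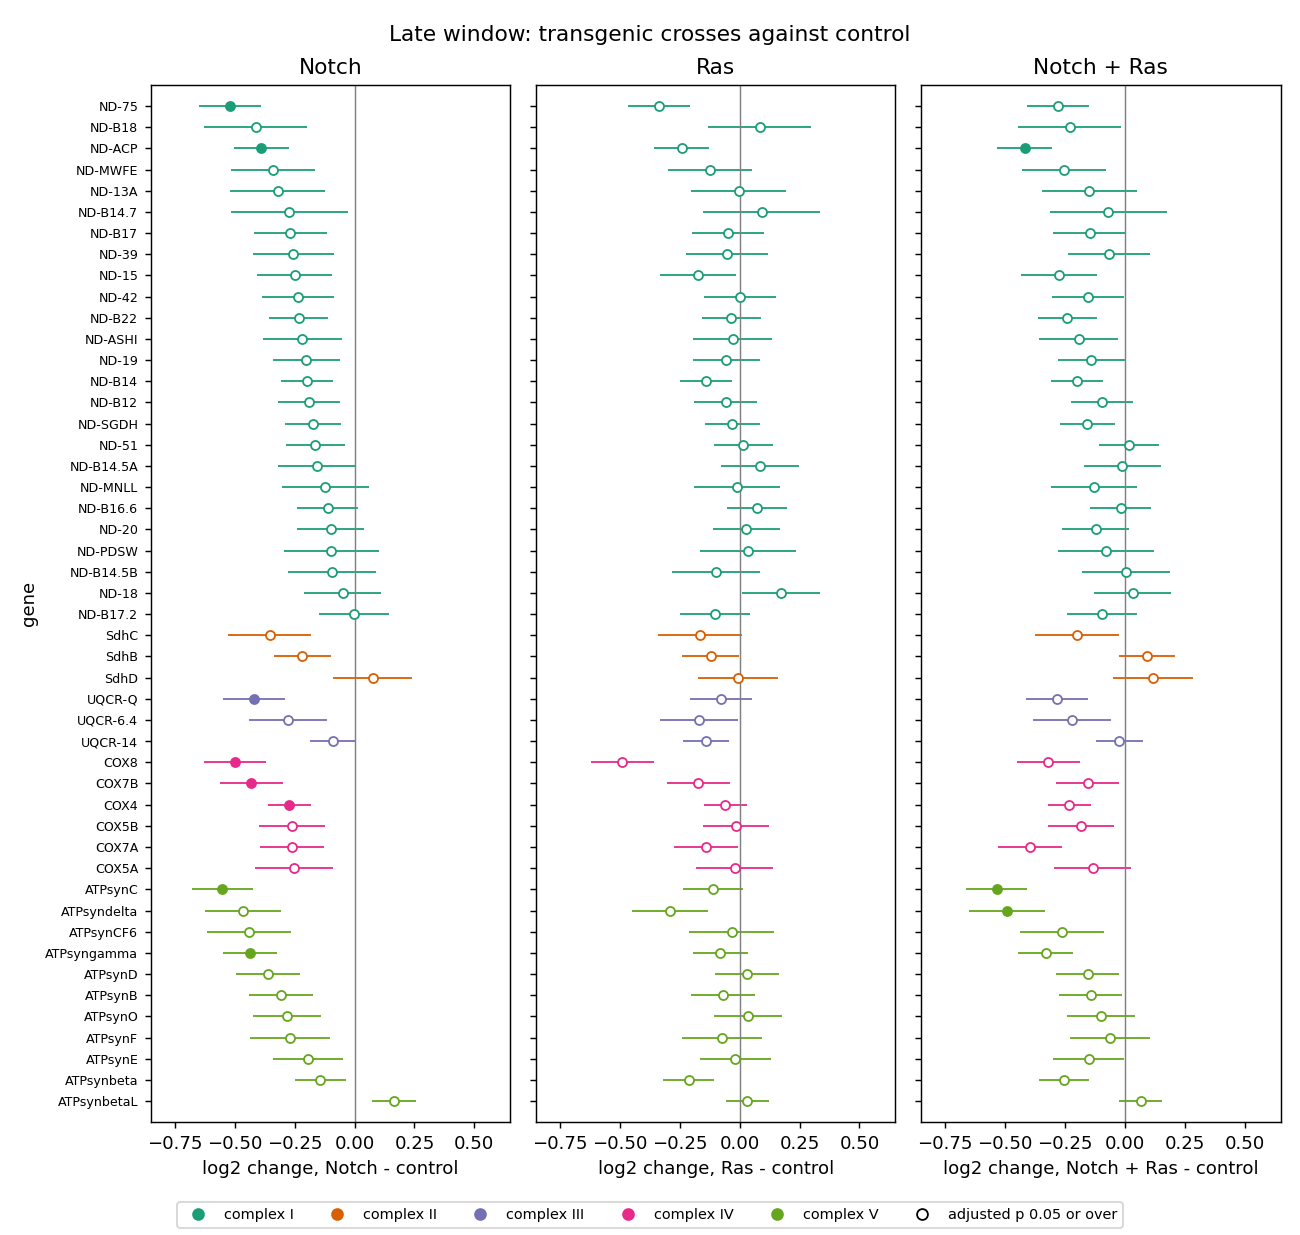
Late-window log2 change against control with its standard error for each of the 48 genes in the Notch, Ras and combined (Notch + Ras) crosses, which share the 3 late control arrays; filled points had an adjusted p under 0.05. The Notch panel has 8 filled points, the Ras panel 0 and the combined panel 3, all left of 0.

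In the early window few changes were seen. With Notch 0 of 48 genes changed (5.42% of all rows did; limma, 2 genes at an unadjusted p under 0.05), with a median of -0.13 beside -0.04 over all rows. With Ras 0 changed (0.366% of all rows did; 0 at an unadjusted p under 0.05), with a median of 0.01. In combined embryos 1 fell and 0 rose (2.08% falling, against 4.43% of all rows falling and 2.53% rising), with a median of -0.11. That gene was ND-75, at 6.62, 6.14 and 6.25 in early combined arrays, against 6.84, 6.65 and 6.81 in early control arrays.

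The ND-75 values did not overlap, and the change was -0.43 ± 0.13 (adjusted p = 0.0464). The call was lost without any 1 of early control replicates 1, 2 and 3 or early combined replicates 2 and 3, with adjusted p up to 0.219. With the replicate number as a block it held (adjusted p = 0.0270), and UQCR-6.4 was called beside it (-0.39, adjusted p = 0.0477). Early ND-75 was 6.48, 6.35 and 6.48 in Notch arrays and 6.54, 6.64 and 6.47 in Ras arrays, each set below the same early control arrays, but those changes of -0.33 and -0.22 did not pass (adjusted p = 0.208 and 0.999).

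**Figure D5:**
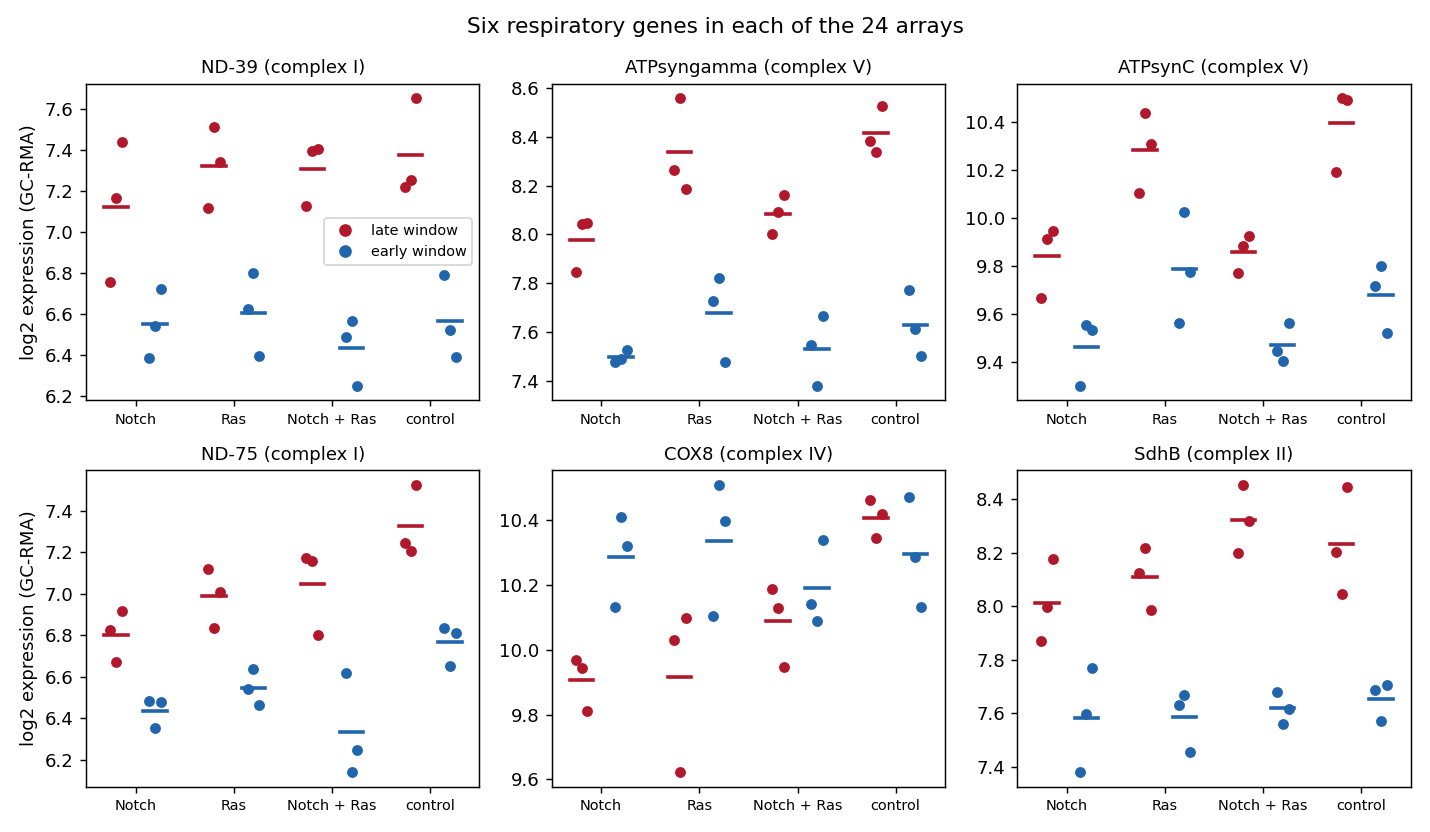
Log2 level in each array of ND-39, ATPsyngamma, ATPsynC, ND-75, COX8 and SdhB in the Notch, Ras, combined (Notch + Ras) and control crosses; points are arrays and bars group means. Late points lie above early points in every cross for all but COX8, whose late Notch arrays (9.97, 9.94 and 9.81) lie below the early ones (10.13, 10.41 and 10.32).

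For none of the 48 genes did the window change of a transgenic cross differ from that of control embryos past the test. The count was 0 for Notch (1.6% of all rows), 0 for Ras (0.0697%) and 0 for combined embryos (2.55%), with 2, 1 and 1 genes at an unadjusted p under 0.05 in limma. For ATPsynC the difference from the control change was -0.34 ± 0.18 in Notch, -0.22 ± 0.18 in Ras and -0.33 ± 0.18 in combined embryos. For ND-ACP it was -0.40 ± 0.16, -0.31 ± 0.16 and -0.30 ± 0.16. These differences had adjusted p of 0.327 or more.

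A departure of the combined effect from the sum of the single effects was called for 0 genes early (0.139% of all rows; 0 at an unadjusted p under 0.05 in limma) and 0 late (0.227%; 4 at an unadjusted p under 0.05). Late, 44 of 48 estimates were positive, with a median of 0.15, beside 0.01 over all rows. All 48 estimates come from the same arrays. Their median was 0.04 without late control replicate 3, 0.06 without late Notch replicate 1 and 0.07 without late Ras replicate 1. The largest named here were COX8 (0.67 ± 0.19, adjusted p = 0.278) and ND-75 (0.58 ± 0.18, adjusted p = 0.498).

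Deviations of the 48 genes from their group means tended to be shared within an array. The median correlation between pairs of them over 24 arrays was 0.52, with 0.54 within a complex and 0.51 between complexes, against 0.05 over pairs of all rows tested. Genes of the mitochondrial ribosome had a median of 0.45 and those of the cytosolic ribosome 0.39. These points share an array, its RNA and its scaling. The mean deviation of the 48 ran from -0.17 in early Notch replicate 1 to 0.21 in late control replicate 3.

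The correlation with the mean of the other members was lowest for 4 genes. It was -0.24 for ATPsynbetaL, -0.15 for ATPsynbeta, which encodes the catalytic subunit, 0.01 for ND-75 and 0.12 for COX8. For the genes most like the mean it was 0.92 (ND-B12 and ND-B14.7).

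Of the subunit and regulator genes of the same complexes that do not carry the chosen names, 8 were tested. Of these 3 rose and 1 fell in control embryos between the windows, 1 rose and 1 fell in Notch, 2 rose and 1 fell in Ras, and 2 rose and 1 fell in combined embryos. The shares rising are 37.5%, 12.5%, 25% and 25%, beside 18.3%, 18.4%, 17.8% and 20.3% of all rows. The share falling is 12.5% in each cross, beside 13.1%, 9.99%, 10.7% and 13% of all rows. The ATP synthase alpha subunit gene blw rose by 0.30 in Notch, 0.54 in Ras, 0.40 in combined and 0.62 ± 0.11 in control embryos. Late, blw was lower in Notch embryos (-0.50 ± 0.11, adjusted p = 0.00214) and in combined embryos (-0.34 ± 0.11, adjusted p = 0.0318) than in control embryos, and so was cype of complex IV in Notch embryos (-0.46 ± 0.10).

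CG13551, for which RefSeq lists the name of the ATP synthase inhibitor IF1 as a synonym, fell between the windows in all 4 crosses. It had 9.04, 9.54 and 9.27 late in Notch embryos, against 10.01, 10.36 and 10.82 early. In control embryos it had 9.43, 9.53 and 9.71 late, against 10.34, 10.51 and 10.50 early. The groups were separate in both crosses. The changes were -1.11 ± 0.20 in Notch, -0.83 ± 0.20 in Ras, -1.18 ± 0.20 in combined and -0.90 ± 0.20 in control embryos, each larger in size than that of any of the 48 genes in the same cross.

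Of 5 assembly factor genes tested, the copper chaperone gene Cox17 rose in all crosses, by 1.15 ± 0.14 in Notch, 0.67 ± 0.14 in Ras, 0.73 ± 0.14 in combined and 1.07 ± 0.14 in control embryos, and no other assembly factor changed between windows. That is 20% of the list in each cross, near the 17.8% to 20.3% of all rows that rose. Late Cox17 was lower in combined than in control embryos (-0.64 ± 0.14, adjusted p = 0.00216). Among 8 carrier and import genes, Tim8, a chaperone of import into the inner membrane, rose in all crosses by 0.51 to 0.75. The ADP/ATP carrier gene sesB fell in Notch (-0.56 ± 0.15), Ras (-0.45 ± 0.15) and combined embryos (-0.63 ± 0.15). In that list 25% rose in Notch embryos and 12.5% in each other cross, beside 17.8% to 20.3% of all rows. In Notch, Ras and combined embryos 12.5% fell, beside 9.99%, 10.7% and 13% of all rows.

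All 7 glycolytic genes tested rose between the windows in control embryos, 4 in Ras, and 1 each in Notch and combined embryos. These are 100%, 57.1%, 14.3% and 14.3%, beside 18.3%, 17.8%, 18.4% and 20.3% of all rows rising. Late, 4 of 7 were lower in Notch than in control embryos, 1 in Ras and 4 in combined embryos. These are 57.1%, 14.3% and 57.1%, beside 7.5%, 1.06% and 7.51% of all rows falling. Enolase (Eno) had 6.02, 6.33 and 5.94 in late combined arrays, against 7.46, 7.69 and 7.14 in late control arrays. That is -1.33 ± 0.18 (adjusted p = 1.1e-05), without overlap. Of 10 genes tested of the tricarboxylic acid cycle and its entry, 1 rose and 1 fell between windows in Notch, 3 rose in Ras, 1 rose and 1 fell in combined, and 3 rose and 1 fell in control embryos. The shares rising are 10%, 30%, 10% and 30%, beside 18.4%, 17.8%, 20.3% and 18.3% of all rows. Those falling are 10%, 0%, 10% and 10%, beside 9.99%, 10.7%, 13% and 13.1%. The pyruvate dehydrogenase subunit gene muc rose by 0.53 in Notch, 0.50 in Ras, 0.88 in combined and 0.66 ± 0.14 in control embryos. Idh3a, of isocitrate dehydrogenase, fell by 0.56 in Notch, 0.87 in combined and 0.65 ± 0.20 in control embryos.

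Of 63 mitochondrial ribosomal protein genes, 10 rose in Notch, 3 in Ras, 13 in combined and 9 in control embryos, and none fell. These are 15.9%, 4.76%, 20.6% and 14.3% of the list, beside 18.4%, 17.8%, 20.3% and 18.3% of all rows rising. Late, 1 of them, mRpL12, was lower in Notch embryos (-0.35 ± 0.09, adjusted p = 0.0120). Among 32 cytosolic ribosomal genes, 9 rose in Notch, 9 in Ras, 16 in combined and 6 in control embryos (28.1%, 28.1%, 50% and 18.8%), and late in Notch embryos 0 changed against control (limma, 2 at an unadjusted p under 0.05). Of 9 genes of mitochondrial DNA upkeep and mitochondrial biogenesis, ewg, the fly counterpart of NRF-1, moved most. It had 5.32, 5.43 and 5.73 in late Notch arrays, against 7.60, 7.66 and 7.76 in late control arrays, a change of -2.18 ± 0.25 (adjusted p = 1.79e-06). The respiratory genes and ewg were not tested against each other. The mitochondrial DNA-binding gene mtSSB rose in Notch (0.57 ± 0.13), combined (0.55 ± 0.13) and control embryos (0.37 ± 0.13).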

How the data were processed

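The submitters' processing notes name GCRMA and limma, with no version. The deposited values are log2 expression levels, 1 per probe set and array. Symbols came from the platform annotation and were updated through RefSeq. Of 14010 probe sets, 44 controls were left out, and 5736 rows with a log2 value of 5 or more in at least 3 arrays were tested, the highest-mean probe set per gene. Of 73 probe sets with a member symbol, 4 carry several symbols and were not named. The fit estimated group means over 24 arrays (limma 3.58.1, R 4.3.3; 16 residual and 4.09 prior degrees of freedom), with Benjamini-Hochberg adjustment within each of 15 comparisons, and tested on simulated data. With 3 arrays per group, their number limits the precision. Errors of changes share 1 spread per gene over all groups.

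Sample titles give replicate numbers without saying that a number marks a shared experiment. Within each window, arrays with the same replicate number deviated together (correlations of 0.156 to 0.673 in all pairs of crosses). For crosses compared within a window, fits with that number as a block are therefore given where they change a call. Over the windows of 1 cross this held for Ras (0.123 or more) and combined embryos (0.109 or more), not for control (lowest 0.0401) or Notch embryos (0.0334), whose blocked window changes are given with the other alternatives.

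The members, gene lists and tests were chosen with earlier results of these data known. Named are, per comparison, up to 6 members with the largest called rise and up to 6 with the largest fall, members at the level limit, those with the highest and lowest mean in each complex or the largest SD of group means, and up to 4 called genes per other list; ND-51, ND-B18, ATPsynbeta, ND-B12 and other genes beside a count were added after seeing their values. Alternatives were other scalings, level limits, probe set rules, variance trends, array subsets and blocks. No sequence is shown.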

Additional observations from a re-analysis of the deposited data

Results flagged for a closer look

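Among the genes of the metabolic and biogenesis lists, Eno and ewg changed differently between the windows in combined embryos than in control embryos, by the test of that difference in limma. Eno rose by 0.73 ± 0.18 log2 units in combined and by 1.77 ± 0.18 in control embryos, a difference of -1.04 ± 0.25 (adjusted p = 0.0279). For ewg the difference was -1.71 ± 0.35 (adjusted p = 0.00907), with late levels of 4.96, 4.94 and 4.55 and early levels of 4.50, 4.62 and 4.16 in combined embryos, against 7.60, 7.66 and 7.76 late and 5.84, 5.65 and 5.25 early in control embryos. The combined ewg levels lay below the level limit of 5 in both windows. No respiratory gene of the 48 met such a test. Of the marker lists, the neuroblast gene dpn had a difference of -2.19 ± 0.38 in Notch (adjusted p = 0.00322) and -1.61 ± 0.38 in combined embryos (adjusted p = 0.0251), and the neuronal gene fne -1.67 ± 0.38 (adjusted p = 0.0249) and -1.64 ± 0.38 (adjusted p = 0.0233). Early dpn was higher than in control embryos, by 1.55 ± 0.27 in Notch and 1.67 ± 0.27 in combined embryos. Between the windows dpn then changed by -2.18 ± 0.27 and -1.60 ± 0.27 in these crosses. The neuroblast gene wor had a difference of 0.99 ± 0.21 in combined embryos (adjusted p = 0.0134). In both windows wor was lower in combined than in control embryos (-4.14 ± 0.15 early and -3.15 ± 0.15 late). Its highest value in any array was 8.41. For the GATA factor gene grn, the late combined effect departed from the sum of the single effects by -1.28 ± 0.25 (adjusted p = 0.0259).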

How the results depend on the processing

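Of 240 counts of called respiratory genes under alternatives, 202 stayed within 1.5 times the count reported, 29 were lower and 9 higher, and 36 of 88 called changes were kept in every alternative run. No called change turned its direction, and the medians of the 10 simple comparisons moved by less than the spread between arrays under both scalings. The counts of window-change differences and of interactions were 0 in every alternative. These are among the 202 counts that stayed, and with no call reported they had none to lose. Median centring gave 10 called genes for the Notch window change (17 reported), 1 for late Ras (0 reported) and 5 for late combined against control (3 reported). Quantile normalisation gave 11, 1 and 6 for these. In that fit 20.8% rose in the Notch window change, against 14% of all rows. Late falls were 2.08% in Ras and 12.5% in combined embryos, against 1.64% and 8.05% of all rows. With no level limit the Notch window change had 11 and early combined 0 (1 reported). A variance trend gave 1 for late Ras. Fits on only the arrays compared gave 4 for late Notch (8 reported), 0 for early combined, 1 for late combined, 6 for the Notch window change and 9 for the Ras window change (17 reported). With the replicate block, late Ras had 1, early combined 2 and late combined 6, and late Notch had 10. Falls over all rows also grew in number with this block. They were 138 (61 without it), 421 (254), 593 (431) and 640 (430) in these comparisons. Window changes had 17 (Notch), 19 (Ras), 21 (combined) and 24 (control) under this pairing, which kept 16 of 17 calls in Notch (COX8 lost) and 20 of 22 in control (ATPsynbeta and ND-SGDH lost). Leaving out 1 array at a time gave 2 to 8 for late Notch, 0 to 1 for late Ras, 0 to 1 for early combined, 1 to 4 for late combined, 4 to 17 for the Notch window change, 9 to 18 for Ras, 12 to 20 for combined (20 reported) and 12 to 24 for control (22 reported). Fewer arrays leave less precision; otherwise the cause of these shifts was not tested. For late Ras the share of rises among all called rows was 40.1% under either scaling, against 50.8%. Most changes lie within 1 log2 unit, where 3 arrays per group limit what can be called.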
